A study of Mus musculus with 10 samples.

Results

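The genes described here are 6 Wnt ligands (Wnt3, Wnt3a, Wnt8a, Wnt5a, Wnt5b and Wnt11) and 4 Frizzled receptors (Fzd2, Fzd7, Fzd9 and Fzd10) of the mouse. They were taken by symbol from a table of read counts in which they are 10 of 23337 genes. The rule names symbols and no values, but the set was drawn up with earlier results of these data known, so shares of the 10 genes called are descriptions of a chosen set. All 10 passed the filter on low counts, which left 14548 genes for testing. RNA was sequenced from embryoid bodies, aggregates of differentiating mouse embryonic stem cells, of the iHA-Etv2 line, in which doxycycline turns on an HA-tagged copy of Etv2. Etv2 is an ETS transcription factor that starts the blood and endothelial programme in mesoderm. The 5 groups of 2 libraries each were untreated at day 2, doxycycline-treated at day 2, untreated at day 2.5, doxycycline-treated at day 2.5, and doxycycline-treated Flk1-positive at day 2.5. Every group carries the inducible transgene, so effects of doxycycline itself and of Etv2 cannot be told apart. Flk1, encoded by Kdr, is the main VEGF receptor and a surface marker of blood and endothelial precursors. The labels mark the other 8 libraries as not Flk1-positive without saying whether those cells were sorted at all, and they do not say when doxycycline was added. Nothing says that the 2 libraries of a group came from separate cultures, so the p-values weigh differences only against the spread of these libraries, which may be technical.

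Wnt proteins are secreted, lipid-modified ligands that bind Frizzled receptors, which cross the membrane several times. With the co-receptors Lrp5 and Lrp6, a bound Frizzled stabilises β-catenin, which enters the nucleus and activates genes together with TCF/LEF factors. Wnt3, Wnt3a and Wnt8a usually act through β-catenin. Wnt5a, Wnt5b and Wnt11 are best known for the branch that controls cell polarity and movement, with Ror1, Ror2, Vangl and Prickle proteins. In the embryo Wnt3 is needed to form the primitive streak, the site where mesoderm arises. Streak cells also express Wnt8a, Wnt3a, Wnt5a, Wnt5b and Wnt11.

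In the GENCODE M21 annotation of GRCm38, Wnt3 lies at chr11:103774150-103817957 and Wnt3a at chr11:59248033-59290752. Wnt5a lies at chr14:28504750-28527448, Wnt5b at chr6:119432531-119544347 and Wnt11 at chr7:98835112-98855195. The 4 Frizzled genes have a single exon each: Fzd2 at chr11:102604396-102608058, Fzd7 at chr1:59482424-59486955, Fzd9 at chr5:135248938-135251230 and Fzd10 at chr5:128600844-128604093. Exons of other genes cover 4.58% of the Wnt5a exon bases and 8.8% of those of Wnt11, both on the other strand. The counting is not stated to use strand, so reads there cannot be assigned to 1 gene. No stretch of 50 bases in a transcript of the 10 genes occurs in a transcript of another of the 29 Wnt and Frizzled genes.

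The bases before transcript starts are shown for Wnt5b and Wnt11, ligands whose levels ran closely together over the libraries, and for Fzd7, a receptor that varied over a much narrower range. RefSeq (GRCm38.p6) gave 10 windows of 250 bases directly before a transcript start for 7 of the genes, counted from RefSeq's own starts, and the 6 windows printed are those in which no base is an annotated exon. The RefSeq start of Fzd7 lies upstream of its GENCODE start given above, so the Fzd7 window does not reach that start. The windows read 5′ to 3′ on the strand of the gene. Capitals mark matches, on either strand, to the ETS core words CCGGAA or CAGGAA and to the TCF/LEF core words CTTTGA or CTTTGT.
Wnt5b outermost start, chr6:119544348-119544597, minus strand: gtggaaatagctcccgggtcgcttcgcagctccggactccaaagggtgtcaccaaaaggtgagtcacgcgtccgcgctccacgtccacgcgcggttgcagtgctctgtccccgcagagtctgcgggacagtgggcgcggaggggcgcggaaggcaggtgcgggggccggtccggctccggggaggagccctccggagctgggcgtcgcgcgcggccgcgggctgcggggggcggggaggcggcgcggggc
Wnt5b middle start, chr6:119467212-119467461, minus strand: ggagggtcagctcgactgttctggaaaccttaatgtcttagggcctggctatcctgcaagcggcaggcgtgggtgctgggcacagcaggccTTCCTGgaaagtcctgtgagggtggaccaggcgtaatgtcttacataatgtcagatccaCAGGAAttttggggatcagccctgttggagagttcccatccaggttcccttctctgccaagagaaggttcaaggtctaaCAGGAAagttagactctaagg
Wnt5b innermost start, chr6:119449387-119449636, minus strand: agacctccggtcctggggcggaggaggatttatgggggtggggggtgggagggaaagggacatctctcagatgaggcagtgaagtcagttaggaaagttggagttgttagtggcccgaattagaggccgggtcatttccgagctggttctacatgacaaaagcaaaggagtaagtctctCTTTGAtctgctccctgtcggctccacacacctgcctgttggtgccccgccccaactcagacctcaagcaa
Wnt11 outermost start, chr7:98834862-98835111, plus strand: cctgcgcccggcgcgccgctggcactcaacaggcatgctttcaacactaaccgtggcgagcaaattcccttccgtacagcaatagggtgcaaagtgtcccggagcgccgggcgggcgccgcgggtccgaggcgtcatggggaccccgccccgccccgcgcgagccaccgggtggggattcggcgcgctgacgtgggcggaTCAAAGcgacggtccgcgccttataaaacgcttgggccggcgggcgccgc
Wnt11 inner start, chr7:98838595-98838844, plus strand: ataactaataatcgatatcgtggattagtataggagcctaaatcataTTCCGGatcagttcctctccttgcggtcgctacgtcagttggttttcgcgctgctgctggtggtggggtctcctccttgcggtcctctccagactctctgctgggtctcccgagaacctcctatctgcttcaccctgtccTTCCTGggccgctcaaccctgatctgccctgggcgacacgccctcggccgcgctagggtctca
Fzd7, chr1:59481897-59482146, plus strand: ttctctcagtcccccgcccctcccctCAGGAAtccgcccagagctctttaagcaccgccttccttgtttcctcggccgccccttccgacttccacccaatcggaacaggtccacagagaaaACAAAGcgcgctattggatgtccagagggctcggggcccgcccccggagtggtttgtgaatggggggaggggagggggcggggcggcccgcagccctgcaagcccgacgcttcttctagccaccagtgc

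The middle Wnt5b window held 3 matches to CAGGAA, and the inner Wnt11 window held 1 match to each of the ETS words. The outermost Wnt11 window and the innermost Wnt5b window each held 1 match to CTTTGA, and the outermost Wnt5b window held none of the 4 words. In Fzd7 there was 1 match to CAGGAA and 1 to CTTTGT. No 2 matches overlapped. An ETS word stood in 4 of the 10 windows, or 40%, against 35.1% of 32851 promoter windows of the same length. A TCF/LEF word stood in 3 of the 10, or 30%, against 27.6%. CCGGAA alone was in 12% of all windows, CAGGAA in 25.7%, CTTTGA in 13.8% and CTTTGT in 16.5%. A match is a description of these letters, not a binding site.

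Libraries held 18074070 to 36068329 counts. Levels are given as CPM, read counts relative to the library size after scaling by edgeR's TMM method. Etv2 stood at 255 to 507 CPM in the 6 doxycycline libraries and at 6.57 to 18.1 CPM in the 4 untreated ones. Kdr stood at 1008 and 986 CPM in the Flk1-positive libraries and at 405 and 433 CPM in the other doxycycline libraries of day 2.5. Marker lists moved with the groups. The summed level of 6 of 6 primitive streak markers was 1175 to 1204 CPM untreated and 1148 to 1254 CPM with doxycycline at day 2. At day 2.5 it was 2518 to 2877 CPM untreated, 787 to 815 CPM with doxycycline and 716 to 746.5 CPM in Flk1-positive libraries. Over the same 5 groups the 6 of 6 endothelial markers summed to 48.6 to 52.2, 122 to 172, 13.5 to 14.5, 465 to 504 and 1114 to 1130 CPM, with Emcn at 0 in the first 3. For 5 of 6 blood markers the sums were 5.93 to 6.44, 49.8 to 53.2, 4.05 to 5.26, 186 to 199 and 667 to 688 CPM, with Hbb-bh1 at 0 in both doxycycline groups of day 2.5. For 5 of 5 pluripotency markers they were 1764 to 1916, 1385 to 1865, 1283 to 1419, 864 to 892 and 825 to 889 CPM. Over the same 5 groups the neuroectoderm list summed to 37.49 to 37.55, 30.35 to 36.63, 23.24 to 25.4, 51.35 to 53.64 and 24.86 to 25.43 CPM. The extraembryonic endoderm list summed to 24.28 to 25.77, 29.83 to 41.93, 45.38 to 45.62, 59.13 to 62.18 and 117.8 to 127.6 CPM. Gata6 (mean 80.45 CPM) and Sox17 (41.37 CPM) made up most of its last sum, with Foxa2 at 0.6716 CPM and Afp at 0. Over all libraries the fibroblast list summed to 11.55 to 18.8 CPM. Sums are carried by their most abundant members, and single markers moved further. Kdr made up most of the endothelial sum in the doxycycline and Flk1-positive groups of day 2.5, with means of 418.9 and 997.1 CPM. Kdr encodes Flk1, which defines the Flk1-positive group, so the rise of that sum there is no separate result. Tal1 made up most of the blood sum with doxycycline, with means of 48.81 CPM at day 2, 183.6 CPM at day 2.5 and 651 CPM in Flk1-positive libraries. In the Flk1-positive libraries Itga2b stood at a mean of 13.68 CPM, Runx1 at 10.79 and Gata1 at 2.077. With doxycycline at day 2, 1 of 6 streak markers was called higher and 2 lower (median log2 change -0.36). There Mixl1 went from 205 to 362 CPM, Eomes from 556 to 393 and Mesp1 from 21.9 to 11.06. From the other doxycycline libraries of day 2.5 to the Flk1-positive ones, 4 of 6 streak markers were called lower and 2 higher (median log2 change -1.39), and 4 of 5 pluripotency markers lower (median -0.98). Mixl1 went from 94.5 to 36.3 CPM, Eomes from 334.5 to 126.8, Nanog from 73.4 to 2.07 and Sox2 from 42.5 to 6.39. The means of T, Tbx6 and Pou5f1 rose instead, from 361.8 to 561.1, from 2.451 to 5.234 and from 724.7 to 826.9 CPM. Of 5 endothelial markers tested in the same comparison, 3 were called higher, Kdr among them, and 1 lower. Tek went from 26.06 to 74.17 CPM, Tie1 from 1.227 to 12.74, Cdh5 from 29.44 to 31.76 and Pecam1 from 8.352 to 5.398. The 2 doxycycline libraries of day 2 differed from each other along exon length (Spearman -0.45 over 14403 genes) and GC content (0.32), and the Flk1-positive pair along GC content (0.37), against 0.08 and -0.03 for the untreated pair of day 2. Each comparison of the Wnt and Frizzled genes described here was also fitted with trends in gene length and GC content removed. Of 70 results for single genes, 63 stayed on the same side of the threshold, 7 gained a call and 0 lost one. That setting was chosen after seeing the data, and the CPM levels given here were not corrected for such trends. In bulk samples, fewer cells of a type and less RNA per cell cannot be told apart.

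Among the ligands thought to act through β-catenin, Wnt3 stood at 69.6 and 81.1 CPM in the untreated day 2 libraries and at 62.7 and 61.4 CPM with doxycycline. At day 2.5 it stood at 80.5 and 82.3 CPM untreated, 45.0 and 42.9 CPM with doxycycline and 29.6 and 27.7 CPM in Flk1-positive libraries. The untreated libraries of the 2 days overlapped, and every other neighbour in the order was separate. Wnt8a, a ligand of the early streak, had the widest range of the 10 genes among those with counts in every library. It stood at 64.6 and 67.7 CPM untreated and 32.95 and 29.2 CPM with doxycycline at day 2. At day 2.5 it reached 103.8 and 127 CPM untreated and stood at 17.4 and 16.8 CPM with doxycycline. The Flk1-positive libraries held only 12 and 4 counts of Wnt8a, or 0.496 and 0.212 CPM, and its 5 groups did not overlap.

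Wnt3a, the close relative of Wnt3 that maintains the later streak, had the fewest counts of the 10 genes. Its levels were 1.34 and 1.04 CPM untreated and 0.944 and 0.586 CPM with doxycycline at day 2, and 1.83 and 2.07 CPM untreated at day 2.5. The 2 doxycycline libraries of day 2.5 differed, with 5 counts (0.137 CPM) and 23 counts (0.664 CPM). Both Flk1-positive libraries held 0 counts of Wnt3a, which allows a level of up to 0.0696 CPM over the group, the level of 3 counts.

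Wnt5b stood at 17.9 and 19.04 CPM untreated and 10.5 and 7.38 CPM with doxycycline at day 2. It stood at 23.8 and 24.1 CPM untreated, 3.76 and 3.52 CPM with doxycycline and 2.31 and 3.07 CPM in Flk1-positive libraries at day 2.5. Wnt11, which guides cell movement during gastrulation, had the same order of groups as Wnt5b. Its levels were 9.485 and 9.985 CPM untreated and 5.38 and 2.83 CPM with doxycycline at day 2, then 16.6 and 13.4 CPM untreated, 1.04 and 1.88 CPM with doxycycline and 0.496 and 0.530 CPM in Flk1-positive libraries at day 2.5. For neither gene did neighbouring groups overlap.

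Wnt5a was ordered differently, with its 2 highest groups at day 2. It stood at 12.04 and 11.5 CPM untreated and 10.2 and 8.89 CPM with doxycycline at day 2. At day 2.5 it stood at 5.004 and 6.63 CPM untreated, 1.76 and 1.59 CPM with doxycycline and 1.445 and 1.22 CPM in Flk1-positive libraries. All 6 ligands were lowest in the Flk1-positive group, and in each the doxycycline group of day 2.5 came next.

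Among the receptors, Fzd7, which carries Wnt signals in pluripotent and early mesodermal cells, stood at 167 and 160 CPM untreated and 126 and 132 CPM with doxycycline at day 2. At day 2.5 it stood at 177 and 168 CPM untreated, 124 and 122 CPM with doxycycline and 93.5 and 78.8 CPM in Flk1-positive libraries. Its 5 groups were separate, yet the highest group mean was only 2.005 times the lowest. Fzd2 stood at 61.4 and 57.1 CPM untreated and 69.96 and 57.2 CPM with doxycycline at day 2, and at 81.8 and 74.4 CPM untreated, 63.6 and 60.9 CPM with doxycycline and 41.0 and 29.7 CPM in Flk1-positive libraries at day 2.5. Both day 2 groups of Fzd2 and the doxycycline group of day 2.5 overlapped one another, while its untreated day 2.5 libraries were above them and its Flk1-positive libraries below.

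Fzd9 was the only one of the 10 genes highest with doxycycline at day 2. It stood at 8.705 and 7.75 CPM untreated and 13.2 and 11.0 CPM with doxycycline at day 2, then 5.31 and 6.38 CPM untreated and 2.335 and 1.76 CPM with doxycycline at day 2.5. The Flk1-positive libraries held 22 and 3 counts of Fzd9, or 0.909 and 0.159 CPM. Fzd10 ran the other way. Its levels were 69.0 and 73.1 CPM untreated and 37.9 and 36.45 CPM with doxycycline at day 2, and 79.0 and 83.8 CPM untreated, 90.5 and 91.6 CPM with doxycycline and 130.4 and 118.5 CPM in Flk1-positive libraries at day 2.5. Fzd10 was lowest with doxycycline at day 2 and highest in the Flk1-positive libraries, with no overlap between groups, while the other 9 genes were lowest in the Flk1-positive group.

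**Figure D1:**
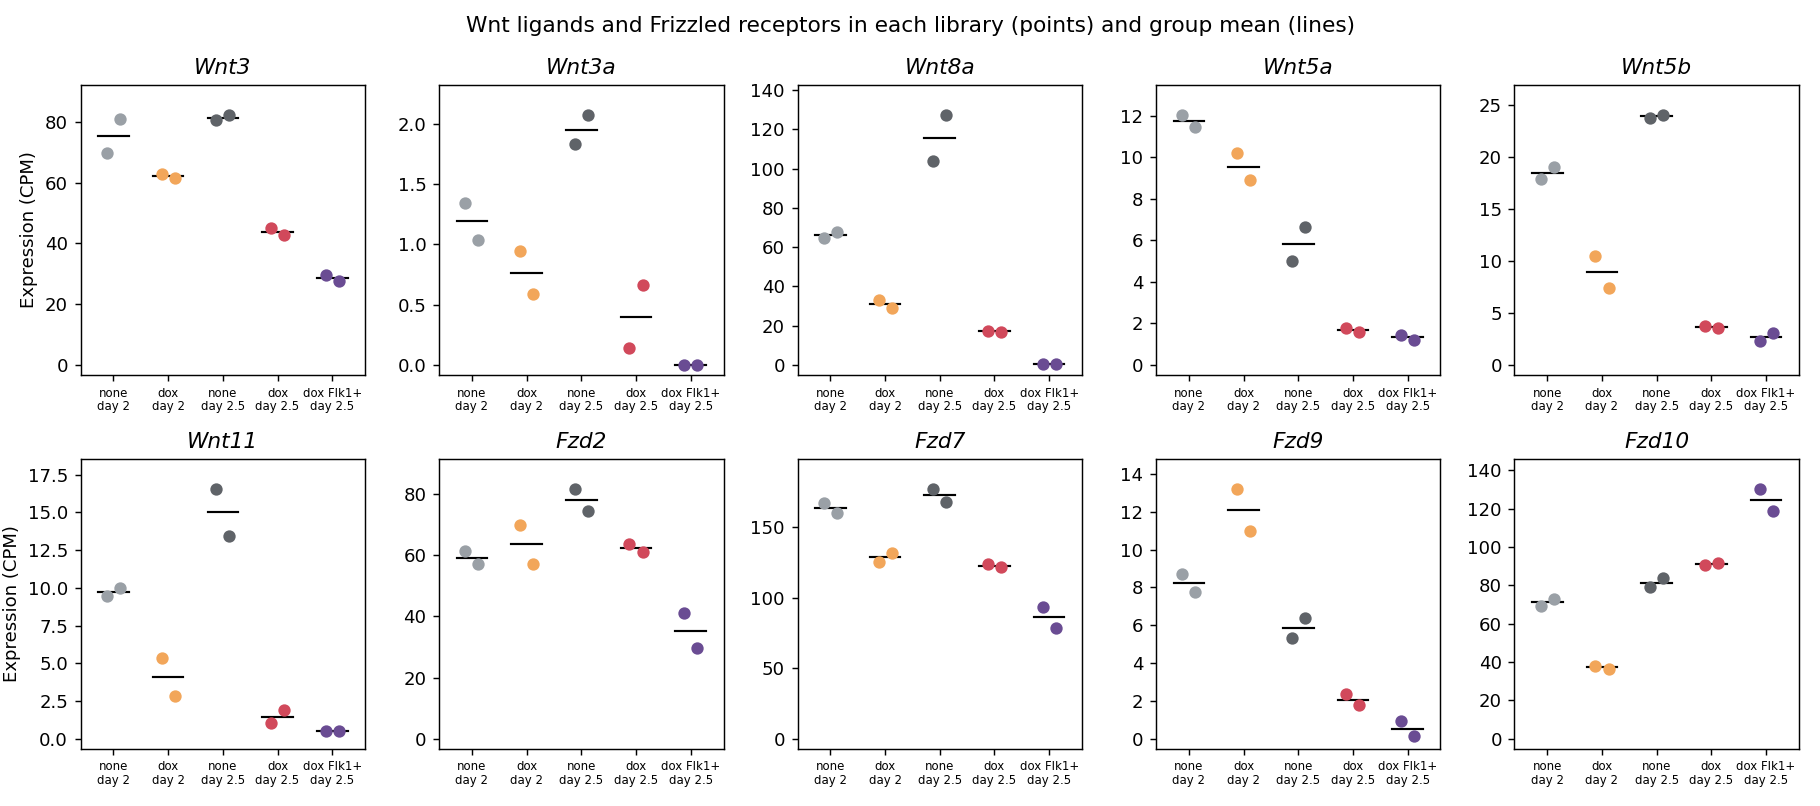
Levels of the 10 genes (CPM, TMM-scaled, linear y axes that differ between panels) in each of the 10 libraries (points) and their group means (lines). The Flk1-positive libraries sit lowest for 9 genes and highest for Fzd10, which stands at 130.4 and 118.5 CPM there.

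Doxycycline was first compared with no treatment at day 2, the earlier of the 2 days. Wnt8a fell from 66.1 ± 2.18 to 31.1 ± 2.64 CPM (SD, n = 2 libraries), Wnt5b from 18.5 ± 0.787 to 8.93 ± 2.19 CPM and Wnt11 from 9.735 ± 0.354 to 4.11 ± 1.80 CPM. Of the receptors, Fzd10 fell from 71.05 ± 2.85 to 37.2 ± 1.03 CPM and Fzd7 from 164 ± 4.71 to 129 ± 4.37 CPM. A gene is called where edgeR's quasi-likelihood test gives a Benjamini-Hochberg adjusted p under 0.05 over all genes tested. The log2 fold changes were -1.09 ± 0.13 (SE) for Wnt8a, with an edgeR adjusted p of 7.63e-05, and -1.05 ± 0.19 for Wnt5b, with 0.00311. They were -1.24 ± 0.29 for Wnt11 (edgeR adjusted p 0.0222), -0.93 ± 0.09 for Fzd10 (1.43e-05) and -0.35 ± 0.09 for Fzd7 (0.0481).

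In all, 5 of the 10 genes were called lower at day 2 and 0 higher, where 1.56% of all genes were called lower and 3.11% higher. By DESeq2, too, 0 of the 10 were called higher, and 0 were higher in edgeR at an unadjusted p under 0.05. The median log2 change of the 10 genes was -0.49, beside 0.0038 over all genes tested. The other 5 missed the threshold in edgeR, with adjusted p from 0.149 to 0.785. Wnt3 was at -0.28 (95% interval -0.49 to -0.06), Wnt3a at -0.64 (-2.02 to 0.75) and Wnt5a at -0.30 (-0.74 to 0.14). Fzd2 was at 0.10 (-0.19 to 0.39) and Fzd9 at 0.56 (-0.06 to 1.17). With gene length and GC trends removed Wnt3 passed (-0.35, edgeR adjusted p 0.0237), which gave 6 genes lower. Only Wnt8a and Fzd10 kept their calls with only the 2 compared groups in the fit, where Wnt5b had an edgeR adjusted p of 0.0730, Wnt11 of 0.161 and Fzd7 of 0.238. Without untreated day 2 replicate 1 or 2 the calls of Wnt11 (edgeR adjusted p 0.124 and 0.152) and Fzd7 (0.364 and 0.219) were lost, and that of Fzd7 also without any one of the 4 day 2.5 libraries that are not Flk1-positive (0.07143 to 0.1004).

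At day 2.5 the same comparison showed all 6 ligands lower with doxycycline. Wnt11 fell from 15 ± 2.23 to 1.46 ± 0.589 CPM (SD, n = 2 libraries), Wnt8a from 115.5 ± 16.6 to 17.1 ± 0.448 CPM and Wnt5b from 23.9 ± 0.194 to 3.64 ± 0.169 CPM. Wnt5a fell from 5.82 ± 1.15 to 1.67 ± 0.120 CPM, Wnt3a from 1.95 ± 0.173 to 0.401 ± 0.373 CPM and Wnt3 from 81.4 ± 1.27 to 43.9 ± 1.49 CPM. The log2 fold changes were -3.36 ± 0.31 (SE) for Wnt11, -2.76 ± 0.13 for Wnt8a, -2.71 ± 0.19 for Wnt5b, -2.28 ± 0.64 for Wnt3a, -1.795 ± 0.24 for Wnt5a and -0.89 ± 0.10 for Wnt3. Their edgeR adjusted p ran from 4.48e-10 for Wnt8a to 0.0145 for Wnt3a. Wnt3a, with 28 counts in the doxycycline group, changed by -1.58 and lost its call without doxycycline day 2.5 replicate 1 (edgeR adjusted p 0.103), changed by -3.78 without replicate 2 (0.00542), and lost its call without either untreated day 2.5 library (0.0575 and 0.0808).

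The receptors split at day 2.5. Fzd9 fell from 5.845 ± 0.759 to 2.05 ± 0.405 CPM (SD, n = 2 libraries), by -1.51 ± 0.32 on the log2 scale (edgeR adjusted p 0.00205). Fzd7 changed by -0.49 ± 0.09 (edgeR adjusted p 8.90e-04). Fzd2, at 62.3 ± 1.89 CPM against 78.1 ± 5.25 CPM, missed the threshold (edgeR adjusted p 0.0799) but passed it under 8 of 16 other settings, among them a fit of the compared groups alone (0.00265). Fzd10, at 91.1 ± 0.765 CPM against 81.4 ± 3.43 CPM, was not called (log2 fold change 0.16, 95% interval -0.03 to 0.35, edgeR adjusted p 0.200). Thus 8 of the 10 genes were called lower and 0 higher, where 13.8% of all genes were called lower and 16.1% higher, and 0 were higher by DESeq2 or at an unadjusted p under 0.05. The median log2 change was -2.50 over the 6 ligands and -0.41 over the 4 receptors, beside 0.0030 over all genes tested. The summed streak markers moved in the same comparison from 2518 to 2877 CPM down to 787 to 815 CPM, and their part in these differences was not tested.

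The doxycycline difference depended on the day for 7 of the 10 genes, by the interaction term of the same fit. This term is the signed log2 change with doxycycline at day 2.5 minus that at day 2. It was -2.12 ± 0.42 (SE) for Wnt11, -2.06 ± 0.43 for Fzd9 and -1.67 ± 0.18 for Wnt8a. For Wnt5b it was -1.67 ± 0.27, for Wnt5a -1.50 ± 0.31 and for Wnt3 -0.61 ± 0.14. For Fzd10 it was 1.10 ± 0.13, with an edgeR adjusted p of 5.25e-05. The change of Wnt11 went from -1.24 at day 2 to -3.36 at day 2.5, and that of Fzd10 from -0.93 to 0.16. The interaction was called lower for 6 genes and higher for 1, where 5.24% of all genes were called lower and 6.87% higher. The median was -1.57, beside -0.0024 over all genes tested. Wnt3 lost its interaction call without untreated day 2 replicate 1 (edgeR adjusted p 0.1005) or doxycycline day 2.5 replicate 2 (0.0699). Wnt3a (-1.64, edgeR adjusted p 0.270), Fzd2 (-0.43, 0.165) and Fzd7 (-0.15, 0.519) were not called.

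Flk1-positive cells were next compared with the other doxycycline libraries of the same day. Wnt8a, at 0.354 ± 0.201 against 17.1 ± 0.448 CPM (SD, n = 2 libraries), was lower by a log2 fold change of -5.51 ± 0.24 (SE, edgeR adjusted p 7.65e-10), and by -6.29 without Flk1-positive replicate 1, which held 12 of its 16 counts. Wnt3, at 28.6 ± 1.32 against 43.9 ± 1.49 CPM, changed far less, by -0.62 ± 0.10 (edgeR adjusted p 2.47e-04). Wnt3a was at least 5.66-fold higher in the other doxycycline libraries (edgeR adjusted p 0.00803), a bound set by 3 counts over the Flk1-positive group. That bound was 1.97-fold without doxycycline replicate 2 and 9.54-fold without replicate 1, and 2.48-fold and 3.18-fold without Flk1-positive replicate 1 and 2. Wnt11 changed by -1.50 ± 0.44 (edgeR adjusted p 0.0134). Wnt5a (-0.32, 95% interval -0.91 to 0.27) and Wnt5b (-0.45, -0.93 to 0.03) were not called, with edgeR adjusted p of 0.379 and 0.121.

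Among the receptors, Fzd9 changed by -1.84 ± 0.43 (log2, SE), Fzd2 by -0.81 ± 0.14 and Fzd7 by -0.51 ± 0.09, with edgeR adjusted p of 0.00323, 2.67e-04 and 5.71e-04. Fzd10 rose from 91.1 ± 0.765 to 124 ± 8.39 CPM (SD, n = 2 libraries), by 0.45 ± 0.09 (edgeR adjusted p 9.93e-04). In this comparison 7 of the 10 genes were called lower and 1 higher, where 21.3% of all genes were called lower and 20.5% higher. The median was -0.71, beside -0.0040 over all genes tested. The Fzd9 change was -3.64 without Flk1-positive replicate 1 and -1.17 without replicate 2, which held 3 counts, with edgeR adjusted p of 6.26e-04 and 0.0319. Calls of 2 genes rested on single libraries: Wnt3a was lost without doxycycline replicate 2 (edgeR adjusted p 0.0705) or Flk1-positive replicate 1 (0.0613), and Wnt11 without doxycycline replicate 2 (0.141) or Flk1-positive replicate 1 or 2 (0.0975 and 0.06215).

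Against untreated libraries of day 2.5, the Flk1-positive group had 9 of the 10 genes called lower and 1 higher, where 26.6% of all genes were called lower and 28.6% higher. This comparison shares its groups with the 2 above, so it is no separate evidence. Wnt8a differed by -8.27 ± 0.22 (log2, SE; edgeR adjusted p 1.85e-13), Wnt11 by -4.86 ± 0.38, Fzd9 by -3.35 ± 0.41, Wnt5b by -3.16 ± 0.21, Wnt5a by -2.11 ± 0.26 and Wnt3 by -1.51 ± 0.10. Without Flk1-positive replicate 1 Wnt8a differed by -9.09 and Fzd9 by -5.19, and without replicate 2 by -7.89 and -2.72, all called. Wnt3a was at least 28.05-fold higher in the untreated libraries, and at least 12.3-fold and 15.8-fold without Flk1-positive replicate 1 and 2. Fzd2 differed by -1.14 ± 0.14 and Fzd7 by -1.002 ± 0.10, while Fzd10 was higher by 0.61 ± 0.09 (edgeR adjusted p 3.895e-05). The median was -2.64 over the 10 genes, and -4.01 over the 6 ligands or -3.99 with Wnt3a at its bound, beside 0.013 over all genes tested.

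**Figure D2:**
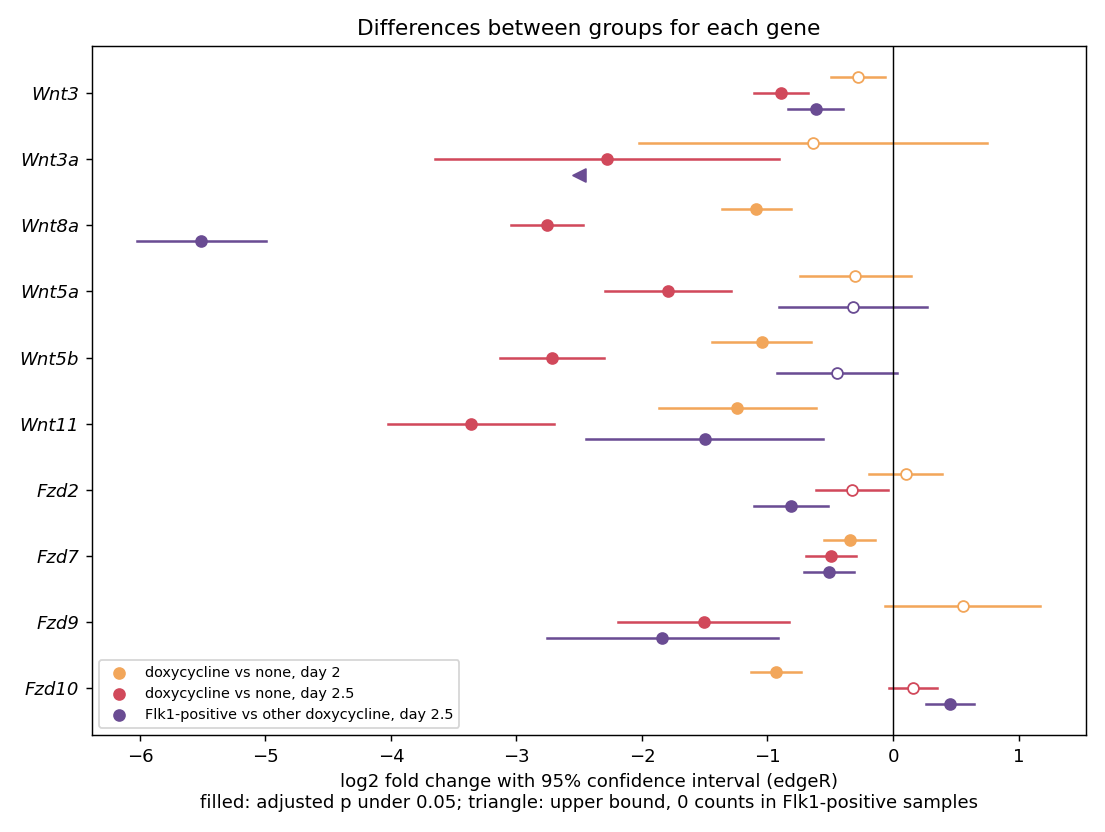
Log2 fold changes from edgeR (x axis) for each gene (y axis) in 3 comparisons, with 95% confidence intervals as bars and filled points where the adjusted p is under 0.05. The triangle is the bound for Wnt3a, which had 0 counts in Flk1-positive libraries; the ligands sit left of 0 with doxycycline at day 2.5, down to -3.36 for Wnt11, and Fzd10 moves from -0.93 at day 2 to 0.16 at day 2.5.

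Between day 2 and day 2.5 without doxycycline, Wnt8a rose from 66.1 ± 2.18 to 115.5 ± 16.6 CPM (SD, n = 2 libraries), by 0.81 ± 0.12 on the log2 scale (SE, edgeR adjusted p 7.185e-04). Wnt5a changed by -1.01 ± 0.21 (edgeR adjusted p 0.00489), a call lost without untreated day 2 replicate 1 (0.0539). The other 8 genes were not called. These were 1 gene higher and 1 lower, where 9.22% of all genes were called higher and 10.3% lower, so the share of the 10 genes was close to that of all genes. The median was 0.29, beside -0.023. Fzd2, at 0.40 ± 0.14 with an edgeR adjusted p of 0.0515, passed under 10 of 16 other settings. The 1 higher became 3 without doxycycline day 2 replicate 1 or 2, and 2 without either Flk1-positive library.

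With doxycycline, 6 of the 10 genes were called lower at day 2.5 than at day 2 and 1 higher, where 23.1% of all genes were called lower and 22.9% higher. Fzd9 changed by -2.56 ± 0.31 (log2, SE), Wnt5a by -2.51 ± 0.23, Wnt11 by -1.50 ± 0.32, Wnt5b by -1.29 ± 0.20, Wnt8a by -0.86 ± 0.13 and Wnt3 by -0.50 ± 0.10. Their edgeR adjusted p ran from 1.05e-06 for Wnt5a to 0.00161 for Wnt11. Fzd10 rose 2.45-fold, from 37.2 ± 1.03 to 91.1 ± 0.765 CPM (SD, n = 2 libraries), by 1.29 ± 0.09 (edgeR adjusted p 8.62e-08). The median was -0.90, beside -0.0019 over all genes tested. Wnt3a, Fzd2 and Fzd7 were not called, with edgeR adjusted p of 0.281, 0.872 and 0.574, and Wnt3a passed without doxycycline day 2.5 replicate 2 (0.0406). Between the same days Wnt8a was higher without doxycycline and lower with it, while Wnt5a was lower in both.

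Levels of different genes were compared per kilobase of exon (CPM per kb) over all 19 Wnt and all 10 Frizzled genes of the table. The Wnt genes summed to 78.8 ± 3.70 CPM per kb untreated and 47.9 ± 3.48 with doxycycline at day 2 (SD, n = 2 libraries). At day 2.5 they summed to 109.9 ± 9.69 untreated, 28.4 ± 0.919 with doxycycline and 13.3 ± 0.335 CPM per kb in Flk1-positive libraries. The sum in each Flk1-positive library was thus below that of every other library. The Frizzled genes summed to 91.55 ± 1.54 CPM per kb untreated and 74.7 ± 2.15 with doxycycline at day 2, and to 101.8 ± 2.08, 89.3 ± 0.508 and 83.35 ± 6.58 CPM per kb in the untreated, doxycycline and Flk1-positive groups of day 2.5. Their highest and lowest library sums, 103 and 73.2 CPM per kb, were closer together than the 116.7 and 13.1 CPM per kb of the Wnt genes.

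The makeup of the ligand transcripts changed with their sum. Wnt8a made up 48.1 ± 0.671% of the Wnt transcripts untreated and 37.1 ± 0.450% with doxycycline at day 2 (SD, n = 2 libraries). It made up 60.1 ± 3.37% untreated, 34.5 ± 0.212% with doxycycline and 1.51 ± 0.824% in Flk1-positive libraries at day 2.5. Wnt3, whose own level was lowest in the last group, had a larger share wherever that of Wnt8a was smaller: 31.1, 42.2, 24.2, 50.3 and 69.8% in the same 5 groups. Shares of a pool have a fixed sum and these 2 genes made up most of it, so their opposite shares follow largely from that. The ratio of Wnt8a to Wnt3, per kb, was 2.497 ± 0.321 untreated and 0.686 ± 0.00522 with doxycycline at day 2.5, and 0.0215 ± 0.01135 in Flk1-positive libraries. Wnt2b, which is not among the 10 genes, came second in the Flk1-positive libraries with 12.9 ± 1.76% of Wnt transcripts.

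In the receptor pool Fzd7 had the largest share at day 2 and in the untreated libraries of day 2.5. It made up 39.4 ± 0.473% at day 2 and 37.4 ± 0.666% at day 2.5 without doxycycline (SD, n = 2 libraries). Fzd7 made up 38.0 ± 2.385% with doxycycline at day 2, 30.3 ± 0.173% at day 2.5 and 22.8 ± 0.946% in Flk1-positive libraries. Fzd10 made up 23.9, 15.3, 24.6, 31.4 and 46.0% in the 5 groups, in the order untreated and doxycycline at day 2, then untreated, doxycycline and Flk1-positive at day 2.5. The ratio of Fzd10 to Fzd7, per kb, was 0.606 ± 0.0417 and 0.403 ± 0.0248 at day 2, then 0.658 ± 0.0528, 1.035 ± 0.0205 and 2.02 ± 0.107. The 2 libraries of each group agreed on which of the 2 receptors was more abundant.

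**Figure D3:**
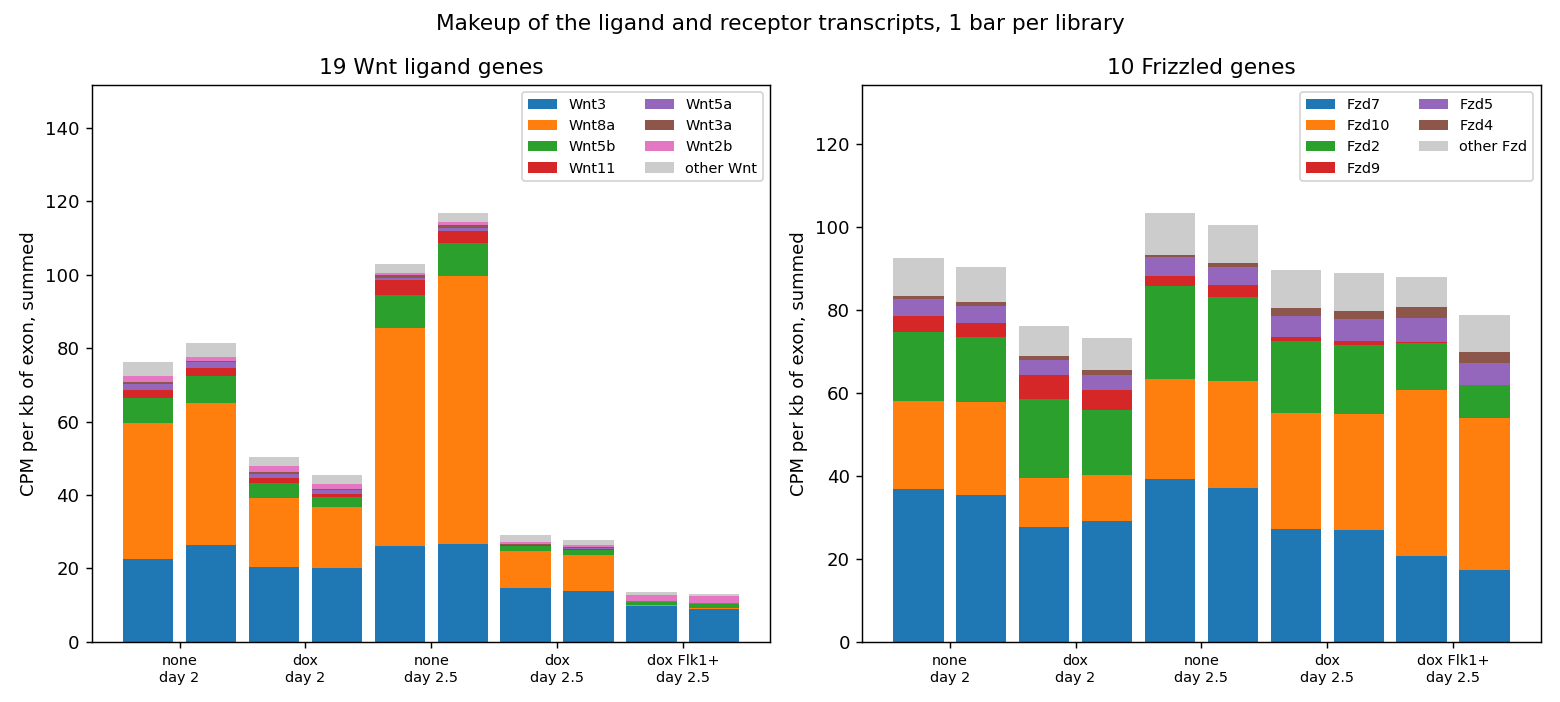
Stacked levels in CPM per kb of exon (y axis) of 19 Wnt genes (left) and 10 Frizzled genes (right), 1 bar per library. The Wnt bars shrink to 13.6 and 13.1 CPM per kb in the Flk1-positive libraries, where Wnt3 is most of what is left, while the Frizzled bars stay between 73.2 and 103 CPM per kb with a growing Fzd10 segment at day 2.5.

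Other genes of the pathway were counted in lists by role, beginning with ligands and receptors. Of all genes, 16.1% were called higher and 13.8% lower with doxycycline at day 2.5. In Flk1-positive against other doxycycline libraries these shares were 20.5% and 21.3%. With doxycycline at day 2 they were 3.11% and 1.56%. Of the other 13 Wnt genes, 7 were tested. With doxycycline at day 2.5, 1 of the 7 was called lower, Wnt9b (-2.03, edgeR adjusted p 0.0151), which was -3.08 without doxycycline day 2.5 replicate 1, a call lost without replicate 2 (0.136) or either untreated library of that day (0.0539 and 0.0795). That 1 of 7 was near the 13.8% of all genes called lower. The median log2 change of the 7 at day 2.5 was -0.77. In Flk1-positive against other doxycycline libraries 2 were called higher and 3 lower, with a median of -1.66, and the 2 became 1 without doxycycline replicate 2 or either Flk1-positive library. Wnt2b rose by 1.64 ± 0.26 (SE) there, while Wnt9a changed by -2.64 ± 0.46 and Wnt4 by -2.51 ± 0.56, which were -3.64 without Flk1-positive replicate 1 and -1.91 without doxycycline replicate 1. Of the other 6 Frizzled genes, Fzd4, a receptor with a known part in vessels of the retina, was higher with doxycycline at day 2.5 by 1.44 ± 0.20 (edgeR adjusted p 6.89e-05). Fzd6 was the 1 called lower, and it lost its call without any one of the 4 compared libraries (edgeR adjusted p 0.0503 to 0.0791). In Flk1-positive cells Fzd4 was higher again by 0.50 ± 0.19 (edgeR adjusted p 0.0449), a call lost without any one of 6 libraries, among them all 4 compared.

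Of the 6 co-receptors, 3 were called lower and 1 higher with doxycycline at day 2.5, with a median of -0.08. Ror1, a receptor of Wnt5a, changed by -1.10 ± 0.19 (log2, SE; edgeR adjusted p 3.66e-04). The 1 higher, Lrp5, lost its call without any one of the 4 compared libraries (0.0828 to 0.152), and the count of 3 lower became 1 without doxycycline day 2.5 replicate 1 or 2 or untreated replicate 2. In Flk1-positive libraries 4 of the 6 were called lower than in the other doxycycline libraries, led by Ror1 at -1.94 ± 0.23 and Ptk7 at -0.62 ± 0.09. Porcn, the enzyme that attaches the lipid to Wnt proteins, changed by -0.75 ± 0.14 with doxycycline at day 2.5 (edgeR adjusted p 7.85e-04). Wls, which carries Wnt proteins to the surface, was at 0.31 ± 0.09 (edgeR adjusted p 0.0148), a call lost without doxycycline replicate 1 or 2 or untreated replicate 2 (0.168, 0.0720 and 0.110).

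Of 15 antagonists, 13 were tested, with 3 called higher and 1 lower with doxycycline at day 2.5 and a median of 0.0955. Frzb, a secreted protein that binds Wnts, changed by -3.31 ± 0.22 (log2, SE; edgeR adjusted p 1.54e-08), and Dkk2, which binds Lrp5 and Lrp6, by 3.69 ± 0.56 (1.37e-04), from 10 to 199 counts. The count of 3 higher became 1 without doxycycline day 2.5 replicate 2 or untreated replicate 2, and the 1 lower became 2 under 8 settings, among them leaving out any one of the 4 doxycycline day 2 or Flk1-positive libraries. Dkk2 changed by 4.37 without untreated replicate 2. In Flk1-positive against other doxycycline libraries 6 of the 13 antagonists were called lower, with a median of -1.07: Sfrp2 changed by -1.07 ± 0.10, Sfrp1 by -1.75 ± 0.18 and Notum, which removes the lipid from Wnts, by -3.74 ± 0.44, or -3.03 and -4.77 without Flk1-positive replicate 1 and 2. Of 9 genes for R-spondins, their receptors and the ubiquitin ligases that remove Frizzleds, 3 were higher and 1 lower with doxycycline at day 2.5, with a median of 0.45, and the 1 lower was lost without any one of the 6 libraries untreated or treated at day 2.5 or untreated at day 2. Lgr5, an R-spondin receptor, rose by 1.78 ± 0.225 in that comparison (edgeR adjusted p 2.15e-05) and by another 2.07 ± 0.20 in Flk1-positive libraries (1.27e-06), where Rspo1 changed by -1.75 ± 0.16.

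Inside the cell, 3 of 17 genes of the β-catenin branch were called higher and 2 lower with doxycycline at day 2.5, with a median of 0.05. Both counts were near the shares of all genes called, 16.1% higher and 13.8% lower. Lef1 changed by -0.78 ± 0.10 (log2, SE) and Tcf7l1, which mostly represses, by 0.63 ± 0.09. The 3 higher became 1 without any one library of day 2.5, and the 2 lower became 1 without doxycycline replicate 1 or 2 or untreated replicate 2 of that day. Removing trends with gene length and GC content gave 7 lower. In Flk1-positive libraries 9 of the 17 were lower and 2 higher, with a median of -0.26, led by Tcf7l1 at -0.91 ± 0.09 and Lef1 at -0.94 ± 0.10. The 9 became 4 without Flk1-positive replicate 2 and 5 without Flk1-positive replicate 1 or doxycycline replicate 1, and the 2 became 1 without Flk1-positive replicate 1.

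Of 8 genes of the polarity branch, 5 were called lower with doxycycline at day 2, with a median of -0.49, and 3 at day 2.5, with a median of -0.12. Prickle1 changed by -1.08 ± 0.10 at day 2 and -1.75 ± 0.10 at day 2.5 (log2, SE), and Dact1, a partner of Dishevelled, by -1.55 ± 0.17 and -2.69 ± 0.18. The day 2 count ranged from 2 to 7, with 2 without either untreated day 2 library or with only the compared groups, and 3 without any one of the 4 libraries of day 2.5 that are not Flk1-positive or with a replicate block, and the day 2.5 count became 7 with trends in gene length and GC content removed. Of 7 streak genes known to respond to Wnt, 6 were tested, with 4 called lower with doxycycline at day 2.5 and a median of -0.79. Sp5 changed by -0.88 ± 0.13 at day 2 and -1.96 ± 0.13 at day 2.5, and T, which encodes brachyury, by -1.21 ± 0.08 at day 2.5. In Flk1-positive against other doxycycline libraries 5 of the 6 were lower and T was higher: Sp5 changed by -2.75 ± 0.15, Cdx2 by -2.62 ± 0.29 and T by 0.63 ± 0.08, from 362 to 561 CPM. The lists' counts stand beside the shares of all genes called that are given above for the same comparisons. A count near its share is no result about the list.

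**Figure D4:**
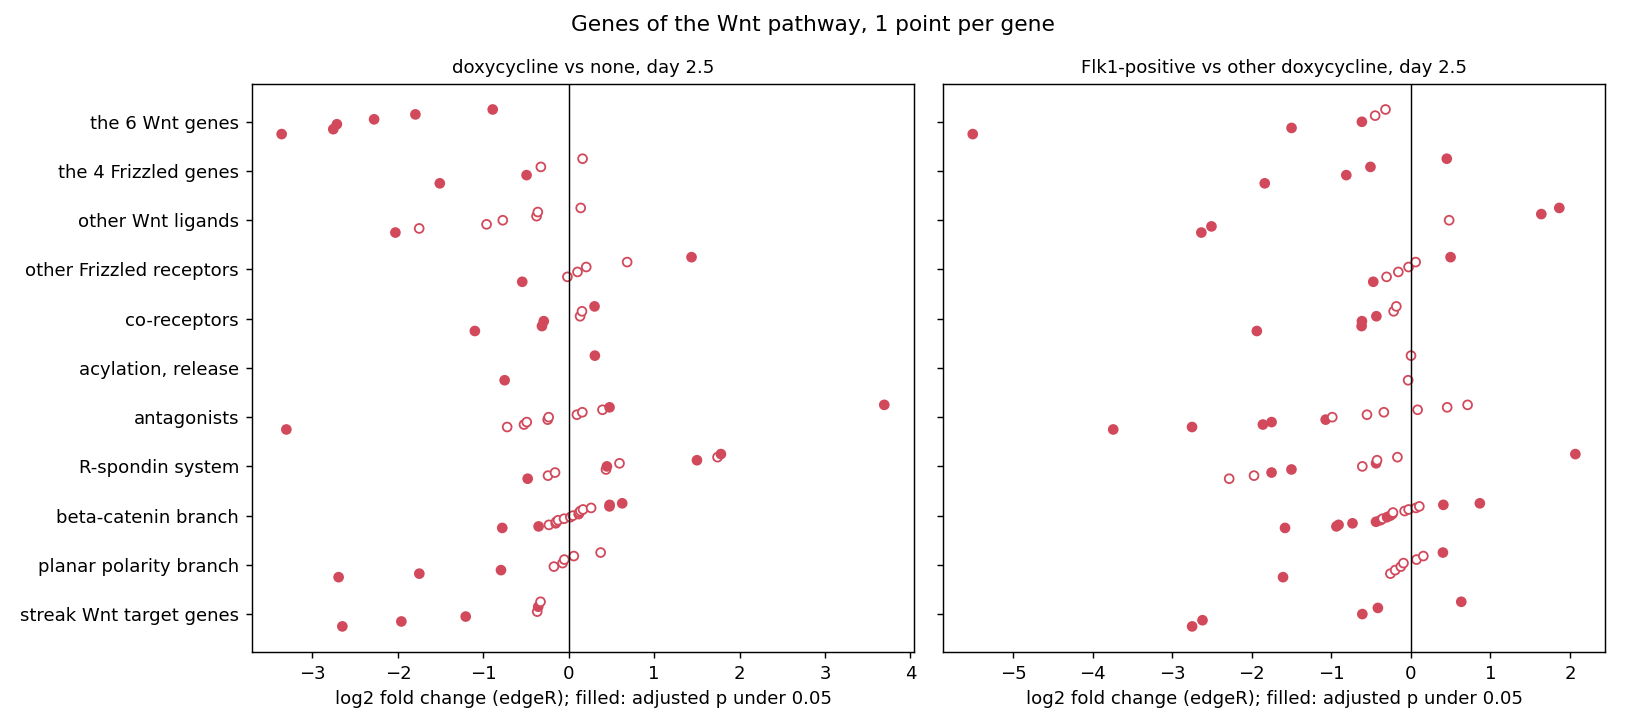
Log2 fold changes from edgeR (x axis) of the 10 genes and of 9 lists of other Wnt pathway genes (rows), 1 point per gene tested, filled where the adjusted p is under 0.05, in 2 comparisons. Genes with 3 or fewer counts in either group compared, Wnt3a among those on the right, are left out; the 6 Wnt genes lie left of 0 on the left panel, and Dkk2 is the point at 3.69 among the antagonists.

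Over the 10 libraries, the log2 levels of Wnt5b and Wnt11 had a Pearson r of 0.98, and Fzd10 had an r of -0.40 to -0.805 with the other 9 genes. These are descriptions of 10 libraries from 5 groups, and the genes share those libraries. Of 11379 genes whose mean reached 5 CPM in 1 or more groups, St6galnac4 was closest to both Wnt5b (r 0.99) and Wnt11 (r 0.99). Wnt8a was closest to Slc4a5 (r 0.998), Pcdh8 (0.997) and Lefty2 (0.996), and Wnt3 to Etv1, Alox15 and Rhpn2 (r 0.99 each). Fzd7 was closest to Mesp2 (r 0.99), Fzd10 to Crb2 (0.99), Fzd9 to Ppp2r2d (0.99) and Fzd2 to Ube2m (0.98). Wnt5a was closest to Cct6a (0.995) and Wnt3a to Ebp (0.98).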

How the data were processed

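The deposited table holds raw read counts per gene symbol for 10 mouse RNA libraries, as the authors made them. Per the submitters' processing notes TopHat, HTSeq, DESeq2 and the mm10 build were used, with versions and settings not given in the sources used here. The table's 92 ERCC spike-in entries, all at 0, were left out. Counts were tested with edgeR 4.0.16 (R 4.3.3): TMM scaling, filterByExpr by group (minimum count 10, minimum total 15), 1 mean per group over all 10 libraries, robust quasi-likelihood tests and Benjamini-Hochberg adjustment over 14548 genes, with a threshold of 0.05. Standard errors are the absolute log2 fold change divided by the square root of the F statistic. The procedure was tested on simulated data. The 10 genes and the lists were chosen with earlier results of these data known.

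Beside the 10 genes, Etv2 and Kdr, the text names up to 3 called genes of each list with the smallest adjusted p in a comparison, and for likeness the genes with the highest Pearson r (prior count 2). For a count of 0, 3 counts over the group set the floor. Such floors cover counting error only. Other settings were RLE size factors, no filter, DESeq2 1.42.0, only the compared groups, a replicate block, each library left out and, chosen after seeing the data, removal of trends with gene length and GC content. Exon lengths came from GENCODE M21, promoter windows from RefSeq (GRCm38.p6). Promoter windows of Wnt5a and Fzd2 were not used here, nor were the coordinates of Wnt8a.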

Additional observations from a re-analysis of the deposited data

Results flagged for a closer look

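For 7 of the 10 genes the doxycycline effect differed between day 2.5 and day 2 by the interaction term of the edgeR model, with a Benjamini-Hochberg adjusted p under 0.05. The difference, effect at day 2.5 minus effect at day 2 on the log2 scale, was -0.6110 for Wnt3, -1.6682 for Wnt8a, -1.4951 for Wnt5a, -1.6665 for Wnt5b, -2.1203 for Wnt11 and -2.0649 for Fzd9. For Fzd10 it was 1.0954. In edgeR the adjusted p was 2.15e-05 for Wnt8a, 7.19e-04 for Wnt5b, 0.0039 for Wnt11, 0.00541 for Fzd9, 0.00569 for Wnt5a and 0.0105 for Wnt3. Fzd9 lay above its untreated level at day 2 without passing the test and fell below it at day 2.5, and Fzd10 was lower at day 2 and did not pass at day 2.5.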

How the results depend on the processing

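Of 1119 results for single genes of the 10 under other settings, 1066 stayed on the same side of the threshold with the same direction, 22 lost a call, 31 gained one and 0 reversed, while 3 that were never called changed sign. Counts of calls among the 10 genes moved by over 1.5 times in 2 comparisons. At day 2 the 5 lower with doxycycline became 2 with only the compared groups fitted and 3 to 5 with single libraries left out. Between days without doxycycline, the 1 higher became 2 with RLE size factors, with DESeq2 and with a replicate block, 3 with no filter, and 5 with only the compared groups or with gene length and GC trends removed. With single libraries left out it was 1 to 3, and the 1 lower was 0 to 1. Over all genes, the 680 calls for doxycycline at day 2 became 1046 with no filter, 155 with only the compared groups, 1159 with trends removed and 246 to 2297 with single libraries left out. The other ranges with single libraries left out were 2645 to 5982 around 4350 for doxycycline at day 2.5, 4020 to 7626 around 6086 for Flk1-positive against other doxycycline libraries, 680 to 4802 around 2836 between untreated days, and 837 to 4069 around 1763 for the interaction. Calls between untreated days became 4575 with only the compared groups, and interaction calls 3383 with trends removed. The cause of these changes was not tested beyond the fewer libraries in such fits. Where a group is left with 1 library, that library is assumed to vary like the other groups.

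The counts showed no sign of pairing by replicate number: deviations of same-numbered libraries correlated by -0.0337 to 0.0979 between groups. Such values cannot tell whether same-numbered libraries came from the same culture or batch. With the replicate block, Fzd2 passed at day 2.5 (edgeR adjusted p 0.0307) and between untreated days (0.0172), which brought the genes called higher between those days to 2, and no other call among the 10 genes changed. Depth limits Wnt3a, with 0 to 23 counts per library in the doxycycline groups of day 2.5. It also limits Wnt8a, Fzd9 and Wnt11 in Flk1-positive libraries, where Wnt11 had 12 and 10 counts.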
